A study of Mus musculus with 6 samples.

Results

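The T cell and NK cell genes described here are Cd3e, Cd3g, Cd4, Cd8a, Lck, Nkg7, Gzma, Gzmb, Prf1 and Ncr1. They were chosen by name for their roles in T lymphocytes and natural killer (NK) cells, and all 10 were found among the 17854 genes of the expression tables. Tomato+ cells, sorted from digested mouse knee cartilage, gave 6 libraries for bulk RNA sequencing. The MSC-derived group (3 libraries) was made from cells that had been injected into the joint as mesenchymal stromal cells (MSCs) of the Prrx1 lineage from inguinal white adipose tissue, and that were recovered from repaired articular cartilage of C57BL/6 male mice with knee osteoarthritis induced by cutting the anterior cruciate ligament. The endogenous group (3 libraries) was made from the articular Tomato+ cells of Prrx1-Cre; R26tdTomato mice of matched age and sex. No joint surgery or injection is described for these mice. Cell origin, joint disease, surgery and host genotype thus differed together between the groups and cannot be told apart. In both groups the red label tdTomato was switched on by Cre expressed from Prrx1, a gene of limb mesenchyme, and was kept by all descendants of such cells. The labels give the cell type of every library as chondrocyte, the strain as C57BL/6 and the sex as male. The sort was on Tomato, and no step against blood cells is described for it in either group. Mice of both groups had blood cells of their own, which in the host mice carried no label. The methods give 3 mice for each group, but the labels do not say whether each library was 1 mouse, so the p-values measure only the spread between these libraries.

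T lymphocytes recognise antigen through a T cell receptor that signals through the CD3 chains, with CD4 on helper cells and CD8 on cytotoxic cells as coreceptors and LCK as the kinase that starts the signal. Cytotoxic T cells and NK cells kill target cells by releasing granules, from which perforin opens the target membrane and granzymes enter. NK cells carry no T cell receptor and use receptors such as NKp46, the product of Ncr1. Such cells are rare in healthy articular cartilage, a tissue without blood vessels, and are known from the synovium of arthritic joints.

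Promoters of 4 genes that were higher in the MSC-derived libraries are shown, to set the T cell receptor chains Cd3e and Cd3g beside the granule genes Nkg7 and Gzma. The sequences come from RefSeq (GRCm38.p6), each from 250 bases before to 50 bases after a transcription start, 5′ to 3′ on the strand of the gene. They lie at chr9:45009562-45009861 on the minus strand (Cd3e), chr9:44980382-44980681 on the minus strand (Cd3g), chr7:43436888-43437187 on the plus strand (Nkg7) and chr13:113100932-113101231 on the minus strand (Gzma). Capitals mark every match, on either strand, to the core of the RUNX motif (TGTGGT), the core of the ETS motif (AGGAAG) or the E-box CAGGTG, motifs of transcription factor families that act in lymphocytes, and no marked matches overlap.
Cd3e: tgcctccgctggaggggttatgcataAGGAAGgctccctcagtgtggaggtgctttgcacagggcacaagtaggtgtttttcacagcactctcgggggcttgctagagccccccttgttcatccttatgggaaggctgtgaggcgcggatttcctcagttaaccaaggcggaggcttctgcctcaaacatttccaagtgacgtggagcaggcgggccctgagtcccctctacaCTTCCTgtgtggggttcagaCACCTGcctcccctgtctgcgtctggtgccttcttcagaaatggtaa
Cd3g: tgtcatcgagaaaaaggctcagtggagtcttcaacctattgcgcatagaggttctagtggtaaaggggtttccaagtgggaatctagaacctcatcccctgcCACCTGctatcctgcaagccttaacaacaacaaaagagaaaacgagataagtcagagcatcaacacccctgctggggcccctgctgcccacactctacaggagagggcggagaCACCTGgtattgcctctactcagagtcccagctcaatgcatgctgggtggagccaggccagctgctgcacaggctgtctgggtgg
Nkg7: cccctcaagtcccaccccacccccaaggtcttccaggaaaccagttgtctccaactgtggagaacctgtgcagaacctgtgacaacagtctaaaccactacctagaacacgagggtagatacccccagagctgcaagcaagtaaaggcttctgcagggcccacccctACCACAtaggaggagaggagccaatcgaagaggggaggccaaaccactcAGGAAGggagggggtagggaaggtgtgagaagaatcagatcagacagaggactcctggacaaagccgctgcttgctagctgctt
Gzma: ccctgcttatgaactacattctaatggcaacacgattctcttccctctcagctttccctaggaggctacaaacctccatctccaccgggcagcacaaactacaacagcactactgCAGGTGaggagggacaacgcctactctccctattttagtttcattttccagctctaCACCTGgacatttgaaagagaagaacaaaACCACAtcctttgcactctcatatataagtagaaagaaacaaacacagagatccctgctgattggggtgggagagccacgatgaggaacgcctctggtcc

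The Cd3e window held the ETS core and the E-box, the Cd3g window only the E-box, the Nkg7 window the RUNX and ETS cores, and the Gzma window the RUNX core and the E-box. Of the 11 windows that RefSeq gives for 9 of the 10 genes, 7 held the RUNX core, 5 the ETS core and 6 the E-box. Over 32851 promoter windows of the same length, these letters were found in 16.8%, 35.4% and 20.2%. Both windows of Ncr1 overlap almost wholly and hold the same RUNX matches, so by gene the RUNX core was found for 6 of 9. The Cd8a window held none of the 3. These matches describe letters and do not show binding. In the RefSeq order of genes, Cd3g, Cd3d and Cd3e lie next to each other on chromosome 9, Cd8a lies next to Cd8b1, Gzma next to Gzmk and Gzmb next to Gzmc.

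The libraries were of similar depth, with 22060628 to 24881796 expected counts, so that 3 counts, taken as the smallest level that can be shown, corresponded to 0.121 to 0.136 CPM (counts scaled to the same library total). This floor covers counting error only. Endogenous replicate 1 stood apart, with 3459 genes at 0 counts against 1338 and 1395 in the other two. The chi-square statistic per gene between it and the other two was 50.1 and 47.6, compared with 4.89 between endogenous replicates 2 and 3 and 3.61 to 3.97 between MSC-derived libraries. Cd3e, Cd3g, Gzmb and Prf1 had 0 counts in endogenous replicate 1, so results are also given without it where they changed. The main collagen gene of cartilage, Col2a1, was read beside the chondrocyte label. It had 95.72 to 102.36 FPKM (fragments scaled to transcript length and library size) in the MSC-derived and 7093.61 to 7146.68 FPKM in the endogenous libraries. Its mean MSC-derived level was still above that of 94.4% of all genes. For the protein, the paper reports by immunostaining that most Tomato+ cells at the joint surface carried Col2α1. The sum of all FPKM values was 808701 to 813572 for MSC-derived libraries, larger than the 504768 to 573603 of the endogenous ones, which puts the FPKM of the 2 groups on somewhat different scales.

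Of the 10 genes, 6 were higher in the MSC-derived cells, 0 were lower, 2 did not pass the test and 2 had too few counts to be tested. The higher genes were Cd4, Cd3g, Cd3e, Nkg7, Cd8a and Gzma. Their fold changes ran from 3.73-fold for Gzma to 470-fold for Cd4, the latter over endogenous counts of only 2, 5 and 17. Calls are from edgeR's quasi-likelihood test on rounded expected counts, at a Benjamini-Hochberg adjusted p of 0.05 or less over all 14289 genes tested. In the same test 31.3% of all genes were called higher and 30.3% lower. The median log2 fold change of the 8 genes tested was 2.67, beside 0.05 over all genes tested. These 8 had passed a filter that needs counts in several libraries, which a gene can pass through the MSC-derived group alone. In CPM, 9 of the 10 genes had every MSC-derived library above every endogenous library, as did 35.7% of all 17854 genes. In bulk RNA, more cells of a type and more RNA per cell cannot be told apart. The number of called genes was 3 when MSC-derived replicate 1, 2 or 3 was left out, and 8 when endogenous replicate 1 was left out, while the share of all genes called higher was 24.9% to 25.2% and 37.8% in these fits.

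**Figure D1:**
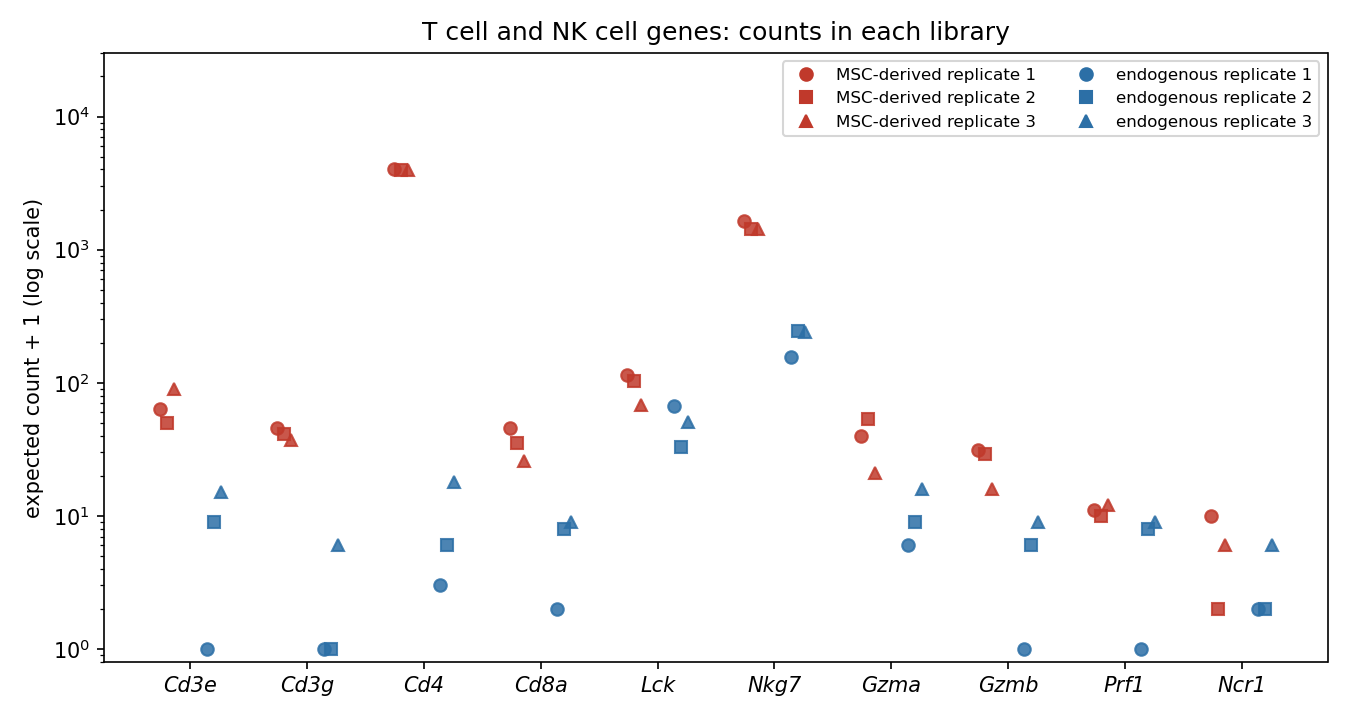
Expected counts plus 1 (log scale) of the 10 T cell and NK cell genes in each of the 6 libraries, with the group by colour and the replicate by marker shape. Cd4 (3970 to 4058 counts) and Nkg7 (1438 to 1635 counts) stand apart in all 3 MSC-derived libraries, while the other 8 genes stay between 1 and 113 counts there.

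Cd3e encodes the epsilon chain of CD3, present in every T cell receptor complex. It had 62, 49 and 89 counts in MSC-derived replicates 1, 2 and 3, compared with 0, 8 and 14 in endogenous replicates 1, 2 and 3. All MSC-derived values lay above all endogenous values, and MSC-derived replicate 3 was the highest. In FPKM this was 2.26 ± 0.803 against 0.233 ± 0.221 (SD, n = 3 each). The log2 fold change was 3.12 (standard error, SE, of 0.96, adjusted p = 0.0244 in edgeR's quasi-likelihood test). The adjusted p rose to 0.0747, 0.0640 and 0.111 without MSC-derived replicate 1, 2 and 3, and to 0.0753 without endogenous replicate 2. The log2 fold change was 2.48 without endogenous replicate 1 and 3.93 without endogenous replicate 3, so its size depends on endogenous libraries with few counts.

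Cd3g encodes the gamma chain of the same complex. Its counts were 45, 40 and 36 in the MSC-derived libraries and 0, 0 and 5 in the endogenous libraries. The MSC-derived libraries differed little, with a coefficient of variation of 5.84% in CPM where counting alone gives 15.7%, and all 5 endogenous counts came from replicate 3. The level was 2.06 ± 0.127 FPKM against 0.0800 ± 0.139 FPKM (SD, n = 3 each). Its log2 fold change was 4.44 (SE 1.08, adjusted p = 0.00873 by edgeR with Benjamini-Hochberg adjustment). Cd3g kept its call with every library left out in turn. The log2 fold change was 3.84 and 3.85 without endogenous replicate 1 and 2, and without endogenous replicate 3 the group held no count, so no fold is given. Cd3d, the delta chain, lies between the other two in the genome and had 80, 55 and 63 counts against 28, 8 and 3. Cd3d rose too, by 2.24 on the log2 scale (SE 0.77, adjusted p = 0.0370), and lost the call with each library left out except endogenous replicate 1, with adjusted p of 0.0653 to 0.118. Without endogenous replicate 1 its log2 fold change was 3.43. Cd247, which encodes the zeta chain that carries much of the signal, had 48, 56 and 58 counts against 0, 15 and 8 and a log2 fold change of 2.73 (SE 0.97, adjusted p = 0.0420). Its call was lost without MSC-derived replicate 1, 2 or 3 (adjusted p = 0.109, 0.125 and 0.135) and without endogenous replicate 3 (0.105), and its log2 fold change was 2.104 without endogenous replicate 1 and 3.63 without endogenous replicate 2. The receptor's own constant genes, Trac, Trbc1, Trbc2 and Trdc, were not analysed here. All 4 signalling chains were thus called higher, with counts under 100 in every library.

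Cd4 encodes the coreceptor of helper T cells, a protein also found on some dendritic cells and, in several species, on monocytes and macrophages. It showed the largest fold change of the 8 genes tested. The counts were 4058, 3983 and 3970 in MSC-derived replicates 1, 2 and 3, and 2, 5 and 17 in endogenous replicates 1, 2 and 3. The groups were far apart, and the 3 MSC-derived libraries varied by 4.33% in CPM. Cd4 reached 59.2 ± 2.60 FPKM in the MSC-derived cells, above the level of 91.0% of all genes, compared with 0.120 ± 0.104 FPKM in the endogenous cells (SD, n = 3 each). The log2 fold change was 8.88 (SE 0.36, adjusted p = 7.41e-07 in edgeR's quasi-likelihood test). It was 10.02 without endogenous replicate 3, the endogenous library with the most Cd4 counts, and 8.38 without endogenous replicate 1. The call held in every fit. Endogenous replicate 1 lay under the floor of 3 counts, so the size of this fold change depends on endogenous libraries with few counts.

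Cd8a encodes the alpha chain of the coreceptor of cytotoxic T cells, and CD8 alpha is also carried by a class of dendritic cells. It had 45, 34 and 25 counts in the MSC-derived libraries against 1, 7 and 8 in the endogenous libraries. The groups did not overlap, but Cd8a stayed about 2 orders of magnitude under Cd4 in the MSC-derived cells. Its level was 0.500 ± 0.115 FPKM against 0.0733 ± 0.0551 FPKM (SD, n = 3 each). The log2 fold change was 2.60 (SE 0.73, adjusted p = 0.0167 by edgeR), and the call was lost without MSC-derived replicate 1, 2 or 3 (adjusted p = 0.0859, 0.0673 and 0.0537). Cd8b1, its partner chain on conventional cytotoxic T cells, had 24.02, 34.01 and 21.19 expected counts against 9.07, 2.18 and 2.80. The fractions come from the authors' division of reads shared with other genes, so Cd8b1 is less certain. It rose by 2.39 on the log2 scale (SE 0.71, adjusted p = 0.0212), and lost the call with each library left out except endogenous replicate 1 (adjusted p of 0.0699 to 0.107). Without endogenous replicate 1 its log2 fold change was 3.22. The ratio of Cd8a to Cd8b1 in FPKM was 0.816, 0.438 and 0.527 in the MSC-derived libraries and 0.0333, 1.43 and 1.22 in the endogenous libraries. The groups overlapped in this ratio only through endogenous replicate 1, where Cd8a had 1 count. Without that library every MSC-derived ratio lay below the endogenous ones. Those rest on 2.18 and 2.80 expected counts of Cd8b1, under the floor of 3 counts.

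Lck encodes the kinase that phosphorylates the CD3 chains. Its counts were 113, 102 and 67 in the MSC-derived libraries, compared with 66, 32 and 50 in the endogenous libraries. The lowest MSC-derived library lay next to the highest endogenous one, and no other gene of the 10 except Nkg7 had as many endogenous counts. Its level was 2.05 ± 0.444 FPKM against 1.10 ± 0.376 FPKM (SD, n = 3 each), with a log2 fold change of 0.85 (SE 0.40, adjusted p = 0.103 in edgeR's quasi-likelihood test). Without endogenous replicate 1 Lck passed the test (adjusted p = 0.00465). Zap70, the kinase that acts after LCK, had 36, 34 and 17 counts against 0, 9 and 10 and a log2 fold change of 2.09 (SE 0.97, adjusted p = 0.0977), and passed only without endogenous replicate 1 (log2 fold change 1.47, adjusted p = 0.0218).

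Nkg7 encodes a membrane protein of the granules of NK cells and cytotoxic T cells. It had the highest level of the 10 genes in FPKM in both groups, although Cd4 had more counts in the MSC-derived libraries. The counts were 1635, 1439 and 1438 in MSC-derived replicates 1, 2 and 3 and 156, 243 and 240 in endogenous replicates 1, 2 and 3. All 3 MSC-derived libraries lay well above the endogenous ones. Its level was 102.7 ± 4.42 FPKM against 14.0 ± 3.16 FPKM (SD, n = 3 each), above 94.6% and 75.9% of all genes in the respective group. Its log2 fold change was 2.75 (SE 0.18, adjusted p = 8.23e-06 by edgeR with Benjamini-Hochberg adjustment), the most precise of the 8. It ran from 2.52 to 2.89 over the 16 alternatives and kept its call in each.

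Gzma encodes granzyme A, a granule protease. Its counts were 39, 52 and 20 in the MSC-derived libraries and 5, 8 and 15 in the endogenous libraries. MSC-derived replicate 3 was only a little above endogenous replicate 3, and the MSC-derived libraries varied by 42.0% in CPM where counting alone gives 16.4%. The level was 2.26 ± 0.945 FPKM against 0.550 ± 0.291 FPKM (SD, n = 3 each). Gzma rose by 1.90 on the log2 scale (SE 0.63, adjusted p = 0.0316 by edgeR). The call was lost without MSC-derived replicate 1, 2 or 3 (adjusted p = 0.108, 0.157 and 0.0548) and without endogenous replicate 2 (0.105). Gzmb, which encodes granzyme B, had 30, 28 and 15 counts against 0, 5 and 8. The groups did not overlap, at 0.777 ± 0.231 FPKM against 0.133 ± 0.122 FPKM (SD, n = 3 each), but the log2 fold change of 2.38 (SE 0.95) did not pass the test (adjusted p = 0.0611 in edgeR's quasi-likelihood test). Without endogenous replicate 1 it did (log2 fold change 1.76, adjusted p = 0.0132), and without endogenous replicate 3 the log2 fold change was 3.11 (adjusted p = 0.0675). Gzmb belongs to a family of similar neighbouring genes, but its expected counts were whole numbers in every library, without the fractions seen for Cd8b1.

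Prf1 encodes perforin, the pore-forming protein of the granules. It had 10, 9 and 11 counts in the MSC-derived libraries against 0, 7 and 8 in the endogenous libraries, too few to pass the filter. The groups did not overlap, but by as little as 1 count. Its level was 0.173 ± 0.0231 FPKM against 0.0833 ± 0.0723 FPKM (SD, n = 3 each). Ncr1 encodes NKp46, a receptor found on NK cells and related innate lymphocytes. It had 9, 1 and 5 counts against 1, 1 and 5, so the groups overlapped and 3 of the 6 libraries were under the floor of 3 counts. In edgeR with no filter, the log2 fold changes of Prf1 and Ncr1 were 0.94 and 1.01 (adjusted p = 0.521 and 0.510), and a difference in either was not detectable at this depth.

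**Figure D2:**
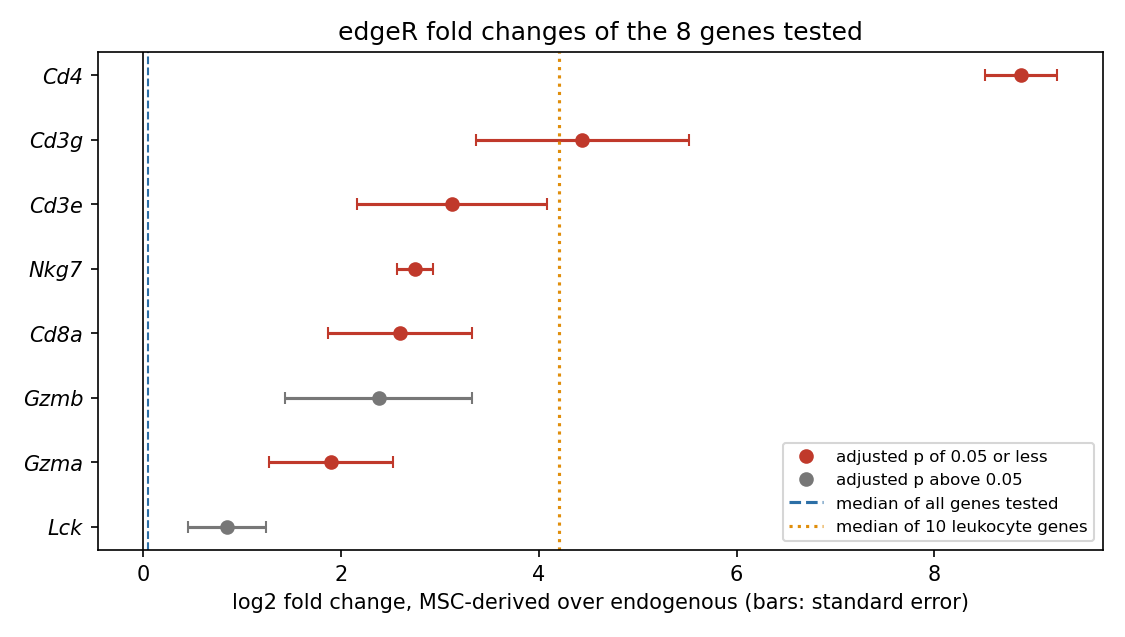
Log2 fold change (MSC-derived over endogenous) of the 8 genes tested, from edgeR, with bars of 1 standard error and colour for an adjusted p of 0.05 or less. Cd4 lies at 8.88, apart from the other 7, which run from 0.85 (Lck) to 4.44 (Cd3g), and the lines mark the median of all genes tested (0.05) and of 10 leukocyte genes (4.20).

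Levels among the 10 genes were compared in FPKM, which is per length. In the MSC-derived cells Nkg7 was first (97.91 to 106.61 FPKM) and Cd4 second (56.89 to 62.00 FPKM), and their ranges did not overlap each other or any of the other 8. Cd3e, Gzma, Cd3g and Lck followed at 1.3 to 3.19 FPKM with overlapping ranges. Gzmb and Cd8a, which overlapped each other, lay at 0.39 to 0.92 FPKM, and Prf1 and Ncr1 were last at 0.03 to 0.29 FPKM. In the endogenous cells Nkg7 was again first (10.41 to 16.28 FPKM), Lck (0.74 to 1.49 FPKM) and Gzma (0.30 to 0.87 FPKM) followed with overlapping ranges, and the other 7 genes, Cd4 among them (0.05 to 0.24 FPKM), lay at 0 to 0.44 FPKM with overlapping ranges.

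Summed over the 10 genes, the MSC-derived libraries had 245.8 to 257.3 CPM and the endogenous libraries 9.85 to 14.9 CPM. Cd4 made up 67.1% to 69.9% of this sum in the MSC-derived cells and Nkg7 25.1% to 27.0%. The other 8 genes gave 4.72% to 5.84%, or 268 to 353 counts in a library. In the endogenous cells the makeup was another, with Cd4 at 0.866% to 4.59%, Nkg7 at 64.9% to 76.9% and the other 8 genes at 21.5% to 31.6%, from 68 to 113 counts. Cd4 was 29.0, 35.5 and 19.6 times Cd3e in FPKM in the MSC-derived libraries, and 0.269 and 0.545 times Cd3e in endogenous replicates 2 and 3. In FPKM Cd4 thus stood above Cd3e in all 3 MSC-derived libraries and below it in both endogenous libraries that had Cd3e counts. The endogenous part rests on few counts, 5 and 17 for Cd4 against 8 and 14 for Cd3e in replicates 2 and 3. In endogenous replicate 3 Cd4 had more counts than Cd3e, and its lower FPKM there comes from scaling to length. Nkg7 was 54.4, 59.3 and 32.7 times Cd3e in the MSC-derived libraries and 62.6 and 34.9 times Cd3e in these endogenous libraries, so this ratio overlapped between the groups. No ratio to Cd3e can be given for endogenous replicate 1, where Cd3e is at 0.

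Ptprc encodes CD45, the surface phosphatase shared by all leukocytes. It had 73.73, 78.48 and 75.64 FPKM in the MSC-derived libraries and 5.33, 2.93 and 3.25 FPKM in the endogenous libraries, a log2 fold change of 4.20 (SE 0.22, adjusted p = 2.81e-06 by edgeR). Each of the 10 genes was therefore also given as its FPKM divided by that of Ptprc in the same library, as a description with no test. Cd4 was the only one of the 10 with every MSC-derived ratio above every endogenous ratio, at 0.772, 0.747 and 0.820 against 0.00938, 0.0239 and 0.0738. The mean ratio was 21.8 times higher in the MSC-derived cells, and 1.88% of all genes other than Ptprc had such a pattern.

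**Figure D3:**
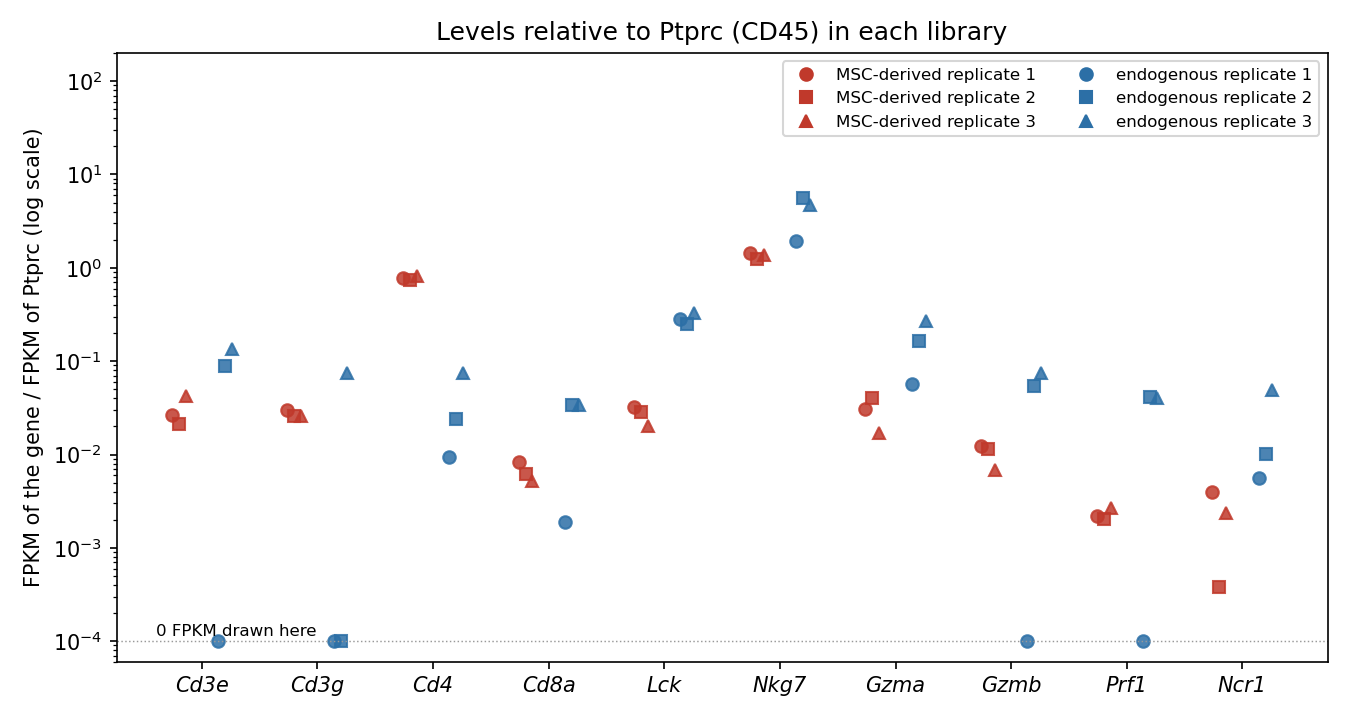
FPKM of each gene divided by the FPKM of Ptprc (log scale) in each of the 6 libraries, with values of 0 drawn on the dotted line. Cd4 is the one gene with all MSC-derived points above the endogenous points, while Lck, Nkg7, Gzma and Ncr1 have all MSC-derived points below them.

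Lck, Nkg7, Gzma and Ncr1 had every MSC-derived ratio below every endogenous ratio, and the other 5 genes overlapped. Lck per Ptprc was 0.0321, 0.0284 and 0.0204 against 0.280, 0.253 and 0.326, and Nkg7 per Ptprc was 1.45, 1.25 and 1.37 against 1.95, 5.56 and 4.73. Such a lower ratio was found for 74.8% of all genes, so the 4 of 10 are not more than the background. Without endogenous replicate 1, 8 of the 10 genes had a lower ratio, Cd4 a higher one and Cd3g overlapped. The share of all genes with a lower ratio was then 87.0%, and the share with a higher ratio was not computed. Deposited FPKM values have 2 decimals, so ratios of the genes with the lowest levels are coarse. The summed FPKM of 10 leukocyte genes was also used in place of Ptprc, a choice made after seeing the data. The counts were again 1 higher, 4 lower and 5 overlapping, and Cd4 was 29.7 times higher. The shares over all genes were not computed for this sum, so these counts have no background beside them.

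A list of 30 further genes of the T cell receptor and of T cell identity was read beside the members. Of these, 26 were in the tables and 23 were tested, with 12 higher, 3 lower and 8 that did not pass. Over all genes tested 31.3% were higher and 30.3% lower. The median log2 fold change of the list was 2.24, beside 0.05 over all genes tested. The filter had left out 3 genes of this list, and a gene can pass it through the MSC-derived group alone, which can raise these values. The largest increases were those of Lcp2, Ctla4, Icos and Ubash3a. Lcp2 encodes SLP-76, an adaptor of T cell receptor signalling that is also present in myeloid cells and platelets. It had 95.23, 92.67 and 94.76 FPKM against 1.39, 2.61 and 2.48 FPKM and a log2 fold change of 5.33 (SE 0.23, adjusted p = 1.06e-06 by edgeR). Icos, a costimulatory receptor, had 78, 78 and 77 counts against 6, 4 and 3 (log2 fold change 4.05, SE 0.49, adjusted p = 0.000256). Ubash3a, a negative regulator of T cell receptor signalling, had 131, 123 and 124 counts against 0, 7 and 17 (log2 fold change 3.90, SE 0.91, adjusted p = 0.00718). Its log2 fold change was 3.27 without endogenous replicate 1 and 5.03 without endogenous replicate 3. Ctla4, an inhibitory receptor, had 18, 28 and 18 counts against 0, 0 and 3. The ratio of its summed counts, scaled to the library totals, was 22.0 (95% exact interval 7.19 to 109.4, for counting error only), the adjusted p in edgeR was 0.0106, and the call was lost without MSC-derived replicate 2 (0.0609).

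The lower genes of the T cell list were Lef1, Tcf7 and Thy1, of which Thy1 was named after its value was seen. Lef1 and Tcf7 encode transcription factors of the Wnt pathway that act in T cells and also in mesenchymal cells, and Thy1 is carried by mouse T cells and by fibroblasts and other mesenchymal cells. Lef1 had 1.23, 1.21 and 1.22 FPKM in the MSC-derived libraries against 13.67, 10.58 and 10.34 FPKM in the endogenous libraries, a log2 fold change of -3.37 (SE 0.16, adjusted p = 1.53e-06 by edgeR). The log2 fold changes of Tcf7 and Thy1 were -2.47 and -1.298 (SEs 0.15 and 0.17, adjusted p = 6.41e-06 and 0.000331). All 3 were lower in every MSC-derived library. The number of T cell list genes called higher was 6, 5 and 6 without MSC-derived replicate 1, 2 and 3, where 24.9% to 25.2% of all genes were called higher.

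Of 28 further genes of NK cell receptors and cytotoxic granules, 27 were in the tables and 19 were tested. Of the tested genes 13 were higher, 1 was lower and 5 did not pass, beside the same 31.3% and 30.3% over all genes tested. Their median log2 fold change was 2.64, beside 0.05 over all genes tested. The same filter had left out 8 genes of this list, so the limit given for the T cell list holds here too. The largest increases were those of Klrc1, Klrk1, Ctsc and Fcgr3. Klrc1 encodes the inhibitory receptor NKG2A. It had 12.51, 13.81 and 12.81 FPKM in the MSC-derived libraries and 0.05, 0.07 and 0.02 FPKM in the endogenous libraries (log2 fold change 7.94, SE 0.30, adjusted p = 5.57e-07 by edgeR). Its endogenous counts of 2, 3 and 1 lie at or under the floor of 3 counts, so the size of this fold change is not measurable. In MSC-derived replicates 1 and 2 its expected counts held fractions (552.83 and 586.85), as for Cd8b1. Klrk1 encodes the activating receptor NKG2D of NK cells and T cells and had 360, 389 and 362 counts against 3, 7 and 10 (log2 fold change 5.70, SE 0.37, adjusted p = 7.52e-06). Both receptor genes were thus far more abundant than Ncr1 in the MSC-derived cells. Ctsc encodes cathepsin C, which activates granzymes and also the serine proteases of neutrophils and mast cells, and had 531.0 ± 9.26 FPKM against 11.1 ± 1.77 FPKM (SD, n = 3 each). Fcgr3 encodes an Fc receptor of NK cells that macrophages and neutrophils also carry, and had 610.6 ± 2.97 FPKM against 14.0 ± 1.67 FPKM (SD, n = 3 each). Their log2 fold changes were 5.36 and 5.33 (SEs 0.14 and 0.11, adjusted p = 1.15e-07 and 6.15e-08 by edgeR).

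Gzmm, granzyme M, was the one lower gene of the NK list, with 11, 10 and 9 counts against 41, 25 and 37 (log2 fold change -1.84, SE 0.49, adjusted p = 0.0132). Its call was lost without MSC-derived replicate 1, 2 or 3 (adjusted p = 0.0745, 0.0772 and 0.0804). Klrb1c, which encodes the NK1.1 antigen that defines NK cells of C57BL/6 mice, had 8, 24 and 15 counts in the MSC-derived libraries and 50, 1 and 0 in endogenous replicates 1, 2 and 3. The endogenous values thus lay on both sides of the MSC-derived ones, and the log2 fold change of -0.20 (SE 1.45) did not pass the test (adjusted p = 0.913). Without endogenous replicate 1 it was 4.56 (adjusted p = 0.00117), so the direction of Klrb1c rests on that library. The endogenous counts left in that fit, 1 and 0, lie under the floor of 3 counts, so the size of this fold change is not measurable. Eomes, a transcription factor of NK cells and memory T cells, had 32, 37 and 47 counts against 1, 9 and 16 (log2 fold change 2.096, SE 0.81, adjusted p = 0.0556). It passed without endogenous replicate 1 (log2 fold change 1.52, adjusted p = 0.00972) and without endogenous replicate 3 (log2 fold change 2.84, adjusted p = 0.0455). Tbx21, which encodes T-bet, had 17, 26 and 8 counts against 0, 7 and 2 and was not tested. In fits without 1 library that kept it, its adjusted p was 0.0397 and 0.0422 without endogenous replicate 1 and 2, and 0.140 and 0.205 without MSC-derived replicate 3 and endogenous replicate 3.

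**Figure D4:**
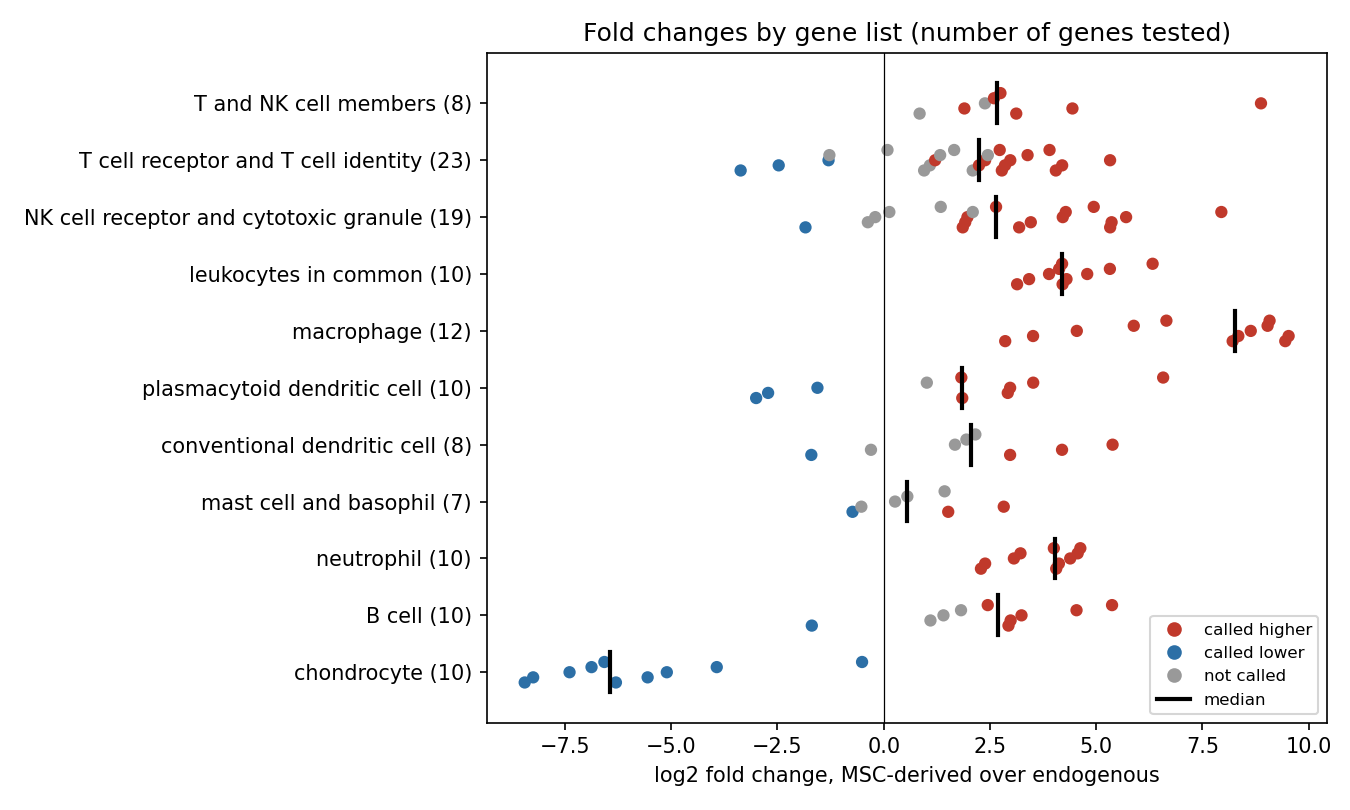
Log2 fold change (MSC-derived over endogenous) of each tested gene in the T cell and NK cell members and in 10 marker lists, by edgeR, with colour for the call and a black bar for the median of each list. The medians are 2.67 for the members, 2.24 and 2.64 for the T cell and NK lists, and 4.20 for leukocyte genes. They are 8.28 for macrophage genes and -6.44 for chondrocyte genes. Only genes that passed the filter are drawn, and a gene can pass it through the MSC-derived group alone.

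Marker genes of other blood cells moved with these genes, and their part in the results was not tested. The calls given for each list stand beside 31.3% higher and 30.3% lower over all genes tested. All 10 leukocyte genes were higher, with summed levels of 7694 to 7784 CPM in the MSC-derived and 365.0 to 419.5 CPM in the endogenous libraries. All 12 macrophage genes were higher (21997 to 22436 against 392.5 to 558.4 CPM), and the defining marker Adgre1 had 261.77 to 272.89 FPKM against 0.10 to 1.39 FPKM. All 10 neutrophil genes were higher (44093 to 46063 against 1905 to 2704 CPM), and the calgranulin gene S100a8 had a log2 fold change of 4.63. The B cell list had 6 higher genes and 1 lower gene among 10 (264.1 to 284.9 against 96.0 to 121.1 CPM). The lower gene, Ebf1, named after its value was seen, had 27.2 to 30.9 against 77.3 to 98.5 CPM. It thus gave most of this sum in the endogenous libraries and little of it in the MSC-derived ones.

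Dendritic cells and mast cells can carry some of the same genes. Plasmacytoid dendritic cell genes were higher for 6 of 10 and lower for 3 (340.3 to 352.7 against 359.7 to 476.9 CPM). The defining markers Siglech and Ccr9 had log2 fold changes of 1.85 and 1.83 (adjusted p = 0.00710 and 0.0184 by edgeR), and Ccr9 stayed at 0.49 to 1.34 FPKM in the MSC-derived cells. The lower genes of this list, named after their values were seen, were Tcf4, Pacsin1 and Runx2 (log2 fold changes of -1.56, -2.72 and -3.00). Tcf4 (253.3 to 344.0 CPM) and Runx2 (89.0 to 117.0 CPM) gave most of the list's sum in the endogenous libraries. In the MSC-derived libraries they had 96.9 to 109.9 and 12.4 to 15.5 CPM. Lair1, also named after its value was seen, had 155.9 to 164.4 against 0.469 to 2.37 CPM, so the sums rest partly on different genes. Conventional dendritic cell genes were higher for 3 of 8 and lower for 1 (64.4 to 69.4 against 30.1 to 32.3 CPM), and Xcr1 had 0.15 to 0.28 FPKM against 0.02 to 0.12 FPKM. Of the mast cell and basophil genes 9 of 10 were in the tables and 7 were tested, with 2 higher and 1 lower (526.2 to 555.7 against 82.9 to 109.8 CPM). Hdc, the histidine decarboxylase gene, named after its value was seen, made up 92.0% to 92.8% of this sum in the MSC-derived libraries, and the rest of the list summed to 40.0 to 44.3 against 29.2 to 30.4 CPM. The shares of conventional dendritic cell and of mast cell and basophil genes called higher are near the 31.3% over all genes tested. For comparison, the T cell list summed to 396.5 to 408.0 against 121.9 to 126.3 CPM and the NK list to 4545 to 4589 against 249.2 to 276.1 CPM. Few genes carry these sums. Lcp2 gave 80.1% to 82.2% of the T cell sum in the MSC-derived libraries, and Lef1, Thy1 and Tcf7 gave 83.4% to 85.5% of it in the endogenous ones. Tyrobp, Ctsc, Fcgr3 and Srgn, of which Tyrobp and Srgn were named after their values were seen and are also abundant in myeloid cells, gave 97.1% to 97.2% of the NK sum in the MSC-derived libraries and 86.9% to 90.1% in the endogenous ones. In none of the lists was a marker at 0 in all 3 MSC-derived libraries. All 10 chondrocyte genes were lower (6568 to 6810 against 56203 to 57000 CPM), beside 30.3% of all genes tested. Prg4, named after its value was seen, gave most of this sum in the MSC-derived libraries (5493 to 5737 CPM), with a log2 fold change of only -0.51. Col2a1 gave most of it in the endogenous libraries (33664 to 33914 CPM), with a log2 fold change of -6.30.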

How the data were processed

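Reads were filtered (SOAPnuke), aligned (HISAT2, Bowtie2) and quantified per gene (RSEM) by the authors, and the submitters' processing notes name Bowtie2 2.2.5, RSEM 1.2.12 and the build mm9. They deposited an expected count of each gene per library, without normalization, and FPKM and TPM, which the authors scaled to transcript length and depth. A further deposited signal per gene is the expected count times 1 factor per library and, like TPM, was used only to check columns. Of the deposited columns 24 were mapped to samples by name, and 8 columns of group averages were not used. Strand is not stated. Expected counts were rounded, which changed 20.6% of values, and the main test was the quasi-likelihood test of edgeR 4.0.16 (R 4.3.3, TMM scaling, filterByExpr, no block), with Benjamini-Hochberg adjustment over 14289 genes. Of the 10 genes 8 passed the filter. The test was first tried on simulated data.

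The members and gene lists were chosen with earlier results of these data known. Named were the 10 members, Cd3d, Cd247, Cd8b1, Zap70, Klrb1c, Eomes, Tbx21 and Ptprc, the 4 largest increases and 2 largest decreases among called genes of the T cell and NK lists, and the first gene of each marker list (2 for plasmacytoid dendritic cells). The value of 1 marker gene is not reported here. Zfp683 of the NK list and Mcpt4 of the mast cell list were not analysed here. Counts of all 6 libraries were of similar depth. Alternatives were DESeq2 1.42.0, 3 normalizations, 2 filters, a replicate block, fits without 1 library, log2(FPKM + 1) and log2(FPKM + 0.1) in limma 3.58.1, a threshold of 0.01 and robust fits. Promoter windows came from RefSeq GRCm38.p6 and were matched by symbol (9 of 10 members).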

Additional observations from a re-analysis of the deposited data

How the results depend on the processing

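Cd4, Cd3g and Nkg7 kept their direction and call in all 16 alternatives each, and the 8 members tested had a positive log2 fold change in every alternative that tested them. The number of members called higher, 6 as reported, was 3 at an adjusted p of 0.01 or less and ranged from 3 to 8 when 1 library was left out. For the T cell list the number called higher, 12 as reported, was 5 at an adjusted p of 0.01 or less and ranged from 5 to 17 when 1 library was left out. In the fits without 1 library, 24.9% to 37.8% of all genes tested were called higher. This share was not computed at 0.01, so the counts at that threshold have no background beside them. The number of members with a lower ratio to Ptprc rose from 4 to 8 without endogenous replicate 1, beside 74.8% and 87.0% of all genes. Gzma was not called with no filter (adjusted p = 0.0520), and Gzma and Gzmb were not tested where at least 1 CPM in 3 libraries was asked for. Lck and Gzmb passed in limma on log2(FPKM + 1) (adjusted p = 0.0302 and 0.00422). The median of all genes moved by 0.12 with library size only, by -0.11 in DESeq2 and by 0.15 in limma on log2(FPKM + 0.1). Calls over all genes were 5042 higher and 3970 lower with library size only, and 4027 and 4650 with upper quartile factors. Equal replicate numbers of the 2 groups did not mark a pair (correlations of 0.0129, 0.00221 and 0.0178), although 5 of 6 samples correlated best with their own number. With the replicate number as a block, 4 members were called higher, beside 28.7% of all genes tested, and Cd8a and Gzma were not (adjusted p = 0.0601 and 0.104). The causes of these changes were not tested. The low counts of 8 of the 10 genes limit what this depth can show.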
